A study of Mus musculus with 12 samples.

Results

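The MHC class II genes were followed in cultured stromal cells of the mouse small intestine, with or without LPS. The 7 genes, of 23329 listed, were chosen by symbol. They are the chains of the antigen-presenting molecules (H2-Aa, H2-Ab1 and H2-Eb1), the invariant chain (Cd74), both subunits of the peptide editor H2-DM (H2-DMa and H2-DMb1) and the class II transactivator (Ciita). RNA was measured by strand-specific, poly(A)-selected mRNAseq in 12 libraries, 3 in each of 4 groups. The embryonic groups held cells of C57BL6/J embryos at E14.5, each culture grown from 6 pooled embryos, and the adult groups held cells of 3 adult mice on the same background, whose age the labels do not give further. Cells at passage 2 to 3 were given either LPS of E. coli O111:B4 for 6 h, at a concentration that the labels write as 10 µg/µl, or PBS as vehicle. This unit is printed as given and could not be checked; for another assay of LPS the study gives µg/ml. No group carried an allele or a transgene. Y27632 was in the growth medium of both stages. The question was how the stroma of each stage responds to a bacterial stimulus.

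MHC class II molecules present peptides from taken-up proteins to CD4+ T cells. The alpha and beta chains assemble in the endoplasmic reticulum with the invariant chain, which blocks the groove. Proteases then cut the invariant chain in late endosomes, and H2-DM removes its last fragment so that peptides can bind. CIITA, which does not bind DNA itself, switches these genes on by joining the factors RFX, CREB and NF-Y on their promoters. Dendritic cells, B cells and activated macrophages make class II molecules. Fibroblasts and epithelial cells, in the intestine as elsewhere, are known to do so after interferon gamma, which induces Ciita, in part through IRF1.

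RFX binds the X box and NF-Y the Y box of these promoters, and the spacing of the boxes is part of the module that CIITA recognises. The sequences below, of H2-Aa and H2-Eb1, are shown because genes at low levels here carry this module in an arrangement that H2-DMb1, at a higher level, also had. They are RefSeq sequences of GRCm38.p6, read 5′ to 3′ on the strand of the gene, and end before its first base, which RefSeq and GENCODE place alike for these genes. Capitals mark the core of the X box searched for, GNAACT, and the Y box, GATTGG. The windows are chr17:34287857-34287924 (minus strand) for H2-Aa and chr17:34305756-34305822 (plus strand) for H2-Eb1.
H2-Aa: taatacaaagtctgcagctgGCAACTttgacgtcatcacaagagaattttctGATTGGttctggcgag
H2-Eb1: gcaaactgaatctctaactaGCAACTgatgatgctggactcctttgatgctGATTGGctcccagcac

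Between the boxes stood 26 bases in H2-Aa, 25 in H2-Eb1 and 26 in H2-DMb1. The Y box began 49, 60 and 62 bases before the RefSeq gene start, in that order. For H2-DMb1 that start is base 34153191, and the GENCODE model of the gene begins upstream of the boxes, at 34153072. The letters were chosen after these promoters had been read. Among 32851 RefSeq windows from 250 bases before to 50 after a gene start, GNAACT was found on either strand in 42.8% and GATTGG in 16.1%. Both stood on 1 strand, in this order and with at most 40 bases between them, in 204 windows (0.621%). Of the 4 members with a window, 3 held the pair, and neither of the 2 windows of H2-DMa did. H2-Eb2, a class II beta chain gene without a count in any library, held it too. The windows of the other class II genes H2-Oa, H2-Ob and H2-DMb2 did not. A match was thus found both in genes that were read and in 1 that was not.

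The libraries held between 18850224 and 32672370 gene counts on the sense strand. Replicates of a group differed by more than counting error. Detection was set at more than 3 counts in a library, a floor of 0.0907 to 0.145 CPM (counts scaled by the TMM-normalised library size), which covers counting error only. The labels call the cells intestinal myofibroblast. The 9 listed markers of fibroblasts and smooth muscle summed to between 18515 and 36153 CPM and all were above the floor in each group. All 15 listed macrophage markers were above the floor in every group as well. They summed to between 190 and 2914 CPM in embryonic and between 53.6 and 210 CPM in adult libraries. The 5 markers of B cells summed to at most 0.454 CPM and those of T cells and innate lymphoid cells to at most 2.69 CPM. The 8 of dendritic cells summed to between 5.35 and 21.3 CPM. Of these, Zbtb46 had 3.57 to 19.0 CPM, Ccr7 reached 8.70 CPM with LPS and Itgax 9.74 CPM, both in embryonic replicate 3, while Cd209a was at 0 throughout and Flt3 at no more than 2 counts. Epithelial markers summed to at most 59.8 CPM, nearly all of it Krt20 (group means of 9.76 to 43.2 CPM). The group means of Epcam, Cdh1 and Vil1 were at most 0.308, 0.603 and 0.184 CPM. Endothelial markers reached 1752 CPM in an adult library, against at most 34.7 CPM in embryonic ones. In such bulk samples, fewer cells of a type and less RNA per cell cannot be told apart.

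H2-DM was the most abundant and Ciita the least abundant of these RNAs per length of transcript, given as RPKM (CPM divided by the length of all exons in kilobases). Over the 12 libraries, the mean RPKM was 5.61 for H2-DMb1 and 1.80 for H2-DMa, 0.740 for Cd74 and 0.374 for H2-Eb1, and 0.101 for H2-Ab1, 0.0888 for H2-Aa and 0.00622 for Ciita. In embryonic PBS, however, H2-DMa (2.44 RPKM) and H2-DMb1 (2.39 RPKM) were close. The order differed by group in other places too. Mean Cd74 lay below H2-Eb1 in embryonic PBS (0.319 against 0.338 RPKM) and adult PBS (0.153 against 0.421 RPKM). Mean H2-Aa lay above H2-Ab1 in embryonic PBS (0.115 against 0.0984 RPKM) and embryonic LPS (0.178 against 0.164 RPKM). For each pair of neighbours in the order over 12 libraries, the ranges over libraries overlapped. The order of the means was kept with the length of the longest transcript in place of all exons, although H2-Ab1 then stood at 0.214 and H2-DMa at 3.10 RPKM. Of the 7 members, 4 passed the filter on low values (CPM above 0.5 in all libraries of at least 1 group). H2-DMa and H2-DMb1 passed in all 4 groups and H2-Eb1 in embryonic LPS and adult PBS. Cd74 passed only through the LPS groups, in which it was high. H2-Aa, H2-Ab1 and Ciita did not pass and were fitted only without the filter.

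**Figure D1:**
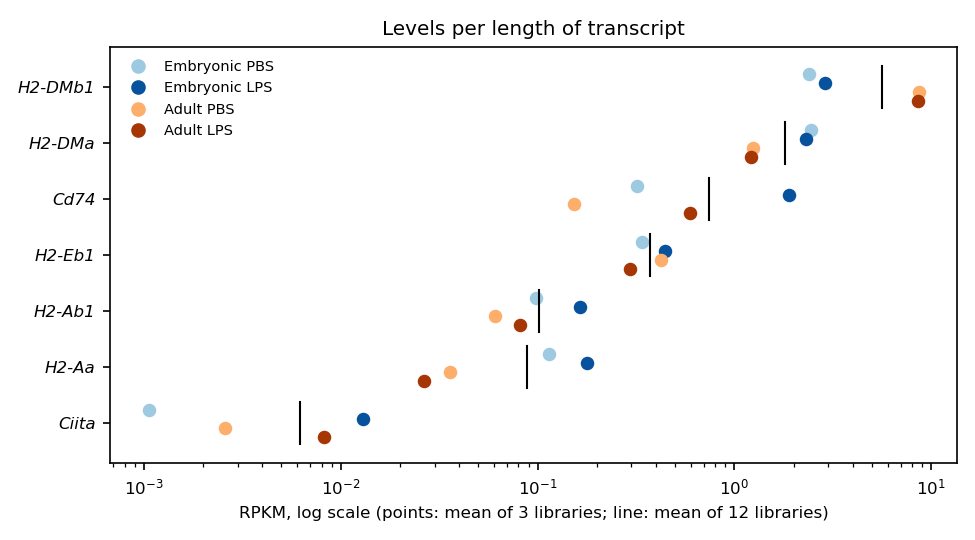
Mean level of each gene in RPKM (x axis, log scale) for each group of 3 libraries (coloured points) and over all 12 libraries (black lines). H2-DMb1 (mean 5.61) and H2-DMa (1.80) lie at the top, Ciita (0.00622) at the bottom, and the LPS groups of Cd74 lie to the right of its PBS groups.

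H2-Aa, H2-Ab1 and H2-Eb1 encode the chains that form the groove. H2-Aa and H2-Ab1 make the I-A molecule, and H2-Eb1 is the beta chain of I-E, which C57BL/6 mice do not display because their alpha chain gene is defective. All 3 genes lie in the MHC on chromosome 17 (GRCm38 GENCODE models at 34282744-34287823 for H2-Aa, 34257689-34269419 for H2-Ab1 and 34305867-34316674 for H2-Eb1). This alpha gene, listed as H2-Ea-ps, was at 0 counts in all 12 libraries.

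H2-Aa had 15, 23 and 5 counts in embryonic PBS and 8, 52 and 1 in embryonic LPS libraries 1 to 3. In the adult it had 6, 1 and 4 counts with PBS and 7, 1 and 1 with LPS. One embryonic library (LPS replicate 2) thus held 52 of the 124 counts of H2-Aa, and 4 of 12 libraries were at or under the floor. H2-Ab1 had 10, 9 and 6 counts in embryonic PBS, 12, 15 and 9 in embryonic LPS, 5, 3 and 4 in adult PBS and 6, 7 and 5 in adult LPS libraries. Every embryonic LPS library lay above every adult library, a separation that was not counted over all genes. In CPM, H2-Ab1 was higher with LPS than with PBS of the same number in 6 of 6 pairs, by 0.061 to 0.74 on the log2 scale. Without the filter, in edgeR's quasi-likelihood test, the log2 fold change was 0.73 (SE 0.40, adjusted p = 0.765) in embryonic and 0.41 (SE 0.44, adjusted p = 1.00) in adult cells, and embryonic LPS exceeded adult LPS by 1.00 (SE 0.41, adjusted p = 0.229).

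H2-Eb1 had 32, 12 and 21 counts in embryonic PBS and 15, 38 and 21 in embryonic LPS libraries. In the adult it had 22, 17 and 24 counts with PBS and 20, 19 and 11 with LPS. As CPM, the adult PBS group was even (0.819 ± 0.0085, SD, n = 3) and lay above all 3 adult LPS libraries (0.570 ± 0.0887). This separation was not counted over all genes. Both embryonic groups straddled the adult PBS level (0.657 ± 0.302 with PBS and 0.866 ± 0.365 with LPS). The log2 fold change with LPS was 0.44 (SE 0.41, adjusted p = 0.925, edgeR) in embryonic and −0.51 (SE 0.42, adjusted p = 1.00) in adult cells. The difference between these did not pass the test (0.94, SE 0.59, adjusted p = 1.00).

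The summed counts of the 3 chains were set beside Csf1r, the receptor for macrophage colony-stimulating factor, to see the chains where macrophage RNA was most abundant. The sums were 17 to 33 counts in adult and 31 to 105 in embryonic libraries, that is 0.733 to 1.22 and 0.968 to 3.46 CPM. Over the same libraries Csf1r ranged from 2.12 to 18.2 CPM in the adult and from 13.1 to 289 CPM in the embryonic stage. Embryonic PBS replicate 3, with most Csf1r (9557 counts), held 32 counts of the chains, while adult PBS replicate 2, with least (44 counts), held 21. Over these libraries the sum did not rise in step with Csf1r. The most chain counts came from embryonic LPS replicate 2, which had less Csf1r (70.2 CPM) than 2 other embryonic libraries. H2-Eb1 held 252 counts, H2-Aa 124 and H2-Ab1 91, so the sum mostly shows H2-Eb1. Mean CPM of H2-Aa was 0.435 (PBS) and 0.678 (LPS) in embryonic and 0.136 and 0.100 in adult groups. For H2-Ab1 it was 0.253 and 0.422, and 0.156 and 0.209. The part of macrophage RNA in the level of the chains was not tested.

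**Figure D2:**
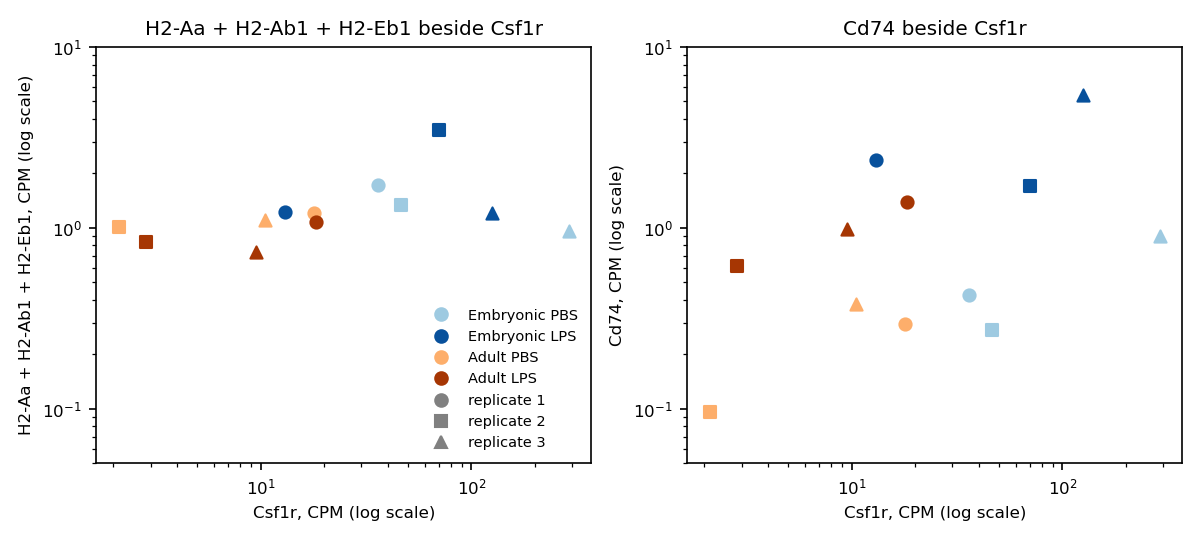
Summed CPM of H2-Aa, H2-Ab1 and H2-Eb1 (left) and CPM of Cd74 (right) against CPM of Csf1r, on log axes, 1 point a library. The sums lie between 0.733 and 3.46 CPM, and Csf1r between 2.12 and 289 CPM. For Cd74, the LPS libraries lie above the PBS libraries of the same number.

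Cd74 encodes the invariant chain, which is also known as a receptor at the cell surface for the cytokine MIF, and lies on chromosome 18 (GRCm38 60803848-60812652). Its level was higher with LPS in both stages, in all 6 pairs of libraries. Cd74 had 14, 9 and 30 counts in embryonic PBS and 68, 52 and 139 in embryonic LPS libraries. It had 8, 2 and 11 counts in adult PBS and 43, 20 and 23 in adult LPS libraries. All LPS libraries lay above all PBS libraries of their stage. How many of all tested genes separated or rose in every pair in this way was not counted. The mean CPM of embryonic cells was 0.535 ± 0.331 (SD, n = 3) without and 3.17 ± 1.97 with LPS, and that of adult cells 0.257 ± 0.145 and 1.00 ± 0.391. The adult PBS group included 1 library under the floor.

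Without regard to the replicate number, the log2 fold change of Cd74 was 2.58 (SE 0.61) in embryonic cells and missed the threshold (adjusted p = 0.0571, edgeR). In adult cells it was 1.92 (SE 0.65, adjusted p = 0.469). A call here needs an adjusted p under 0.05 and a log2 fold change of at least 2. None of the 4 tested members was called, while 1.93% of the 13038 tested genes were called in embryonic and 0.422% in adult cells. At an unadjusted p under 0.05 the test found 1 member, Cd74, in each stage, and 10.8% of all tested genes in embryonic and 5.58% in adult cells. DESeq2 called Cd74 in embryonic cells (adjusted p = 0.00252), where it called 2.91% of the tested genes, and no member in adult cells, where it called 1.3%.

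Libraries of the same stage and number deviated together, so the comparison was also made within these pairs. Cd74 was higher with LPS in 3 of 3 embryonic pairs, by 2.32, 2.38 and 2.49 on the log2 scale of CPM. It was higher in 3 of 3 adult pairs too, by 2.01, 2.05 and 1.24. With the replicate number as a block, Cd74 rose with LPS in embryonic cells by 2.58 (log2, SE 0.25, adjusted p = 0.00042, edgeR), which is 5.98-fold, and was the 1 member called of 4 (3.41% of all tested genes were called in this way). In adult cells the blocked value was 1.96 (SE 0.31, adjusted p = 0.0102), which passed the p threshold and fell just short of the fold threshold, where 1.62% of genes were called. As Cd74 passed the filter only through the LPS groups, it was also fitted without the filter. The embryonic value was then 2.56 (adjusted p = 0.0856, or 0.000165 with the block), and the adult value 1.92 (adjusted p = 0.635, or 0.0083 with the block, where the fold change was 1.95). With the filter, the block and no fold threshold, Cd74 was called in both stages, as were 12.5% of the tested genes in embryonic and 6.2% in adult cells. In edgeR without the block, Cd74 was called in neither stage, with or without the fold threshold.

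The response of Cd74 was not shown to differ between the stages. The difference in log2 fold change was 0.65 (SE 0.89, adjusted p = 1.00, edgeR), or 0.62 (SE 0.43, adjusted p = 0.757) with the block. None of the 4 tested members was called for this interaction in either fit, nor by DESeq2, and 0% of the tested genes were called without the block, 0.844% with it and 0.192% by DESeq2. No member had an unadjusted p under 0.05 here. In the fit without the block, the call of Cd74 in embryonic cells turned on embryonic LPS replicate 2, without which the adjusted p was 0.0447. With the block it remained called when both libraries of any 1 embryonic number were left out (adjusted p between 0.00157 and 0.00421). The adult value passed both thresholds without both libraries of number 3 (2.34, adjusted p = 0.0363).

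**Figure D3:**
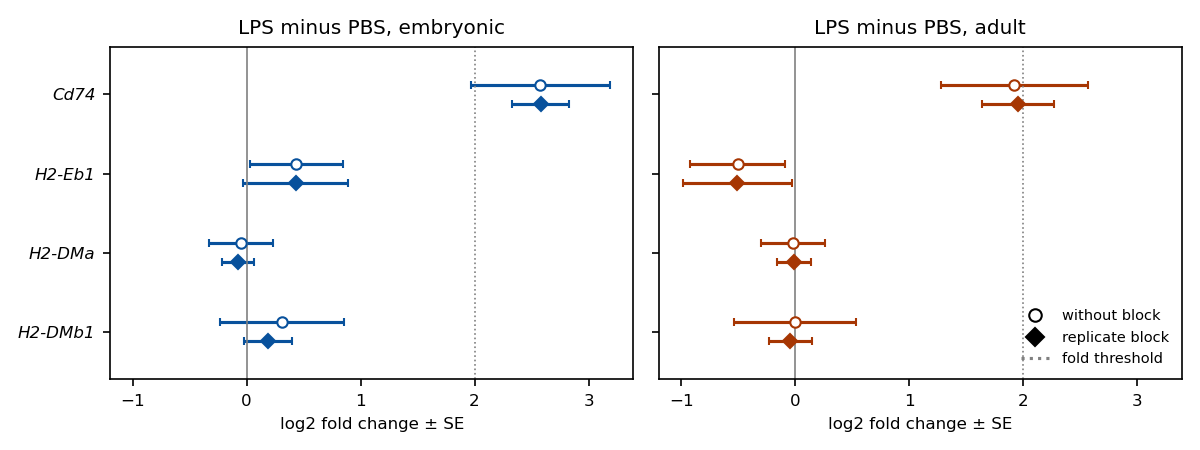
Log2 fold change with LPS (x axis, bars: standard error) of the 4 tested members in embryonic (left) and adult cells (right), without (open circles) and with the replicate block (diamonds). Cd74 lies at 2.58 in embryonic and at 1.92 or 1.96 in adult cells, beside the threshold of 2 (dotted). H2-Eb1 lies at 0.44 or 0.43 in embryonic and at −0.51 in adult cells. H2-DMa and H2-DMb1 lie between −0.080 and 0.31.

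The summed macrophage markers were set beside Cd74 in the same libraries. They were 190, 982 and 2101 CPM in embryonic LPS libraries 1 to 3 and 240, 464 and 2914 CPM in the PBS libraries of the same numbers. In the adult they were 210, 53.6 and 61.9 CPM with LPS and 203, 64.8 and 68.3 CPM with PBS. The sum was thus higher with LPS in 2 of 6 pairs, and Cd74 in 6 of 6. The sum includes genes whose own level changed with LPS, given below. Across treatments it is therefore not a measure of macrophage content alone. Within embryonic PBS, embryonic LPS and adult LPS, the library with most Cd74 was also the one with the largest sum. Within adult PBS, Cd74 was highest in replicate 3 (0.379 CPM) and the sum in replicate 1. Ptprc, the gene of the leukocyte antigen CD45 and 1 of the 15, was higher with LPS in all pairs, for example 162 against 59.9 CPM in embryonic pair 3, with a blocked log2 fold change of 1.84 (SE 0.26, adjusted p = 0.00283, edgeR) in embryonic cells. With the block, 1 of the 15 markers was called up and 1 down in embryonic cells. Fcgr1, an Fc receptor of macrophages, rose (2.31, SE 0.39, adjusted p = 0.00783) and Cx3cr1, the fractalkine receptor, fell (−2.82, SE 0.35, adjusted p = 0.00155), while Csf1r gave −0.66 (SE 0.36, adjusted p = 0.289). Ccr7, a chemokine receptor of activated dendritic cells, had 1, 0 and 0 counts in embryonic PBS and 47, 3 and 223 in embryonic LPS libraries. It had 1, 0 and 0 counts in adult PBS and 37, 1 and 9 in adult LPS libraries. The order of its counts over the 3 embryonic LPS libraries was that of Cd74, and so was the order over the 3 adult LPS libraries. Ccr7 was named after its values were seen, and the other dendritic cell markers did not all rise. Mean Itgax was 3.37 CPM under LPS against 4.26 under PBS in embryonic cells, and 0.207 against 0.296 in adult cells. Mean Zbtb46 was higher under LPS, at 7.96 against 5.73 and 12.8 against 6.14 CPM, in that order of stages. Batf3, Xcr1, Clec9a, Flt3 and Cd209a had group means of at most 0.222 CPM. The part of macrophage or dendritic cell RNA in the level of Cd74 was not tested.

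H2-DMa and H2-DMb1, the subunits of the peptide editor, gave higher counts, and neither was called with LPS. H2-DMa (chromosome 17, 34119541-34139101) and H2-DMb1 (34153072-34160230) lie next to H2-DMb2, a second beta chain gene of closely related sequence. As only uniquely mapped reads were kept, the division of reads between H2-DMb1 and H2-DMb2 is uncertain. The log2 fold change with LPS was −0.049 (SE 0.28) for H2-DMa and 0.31 (SE 0.54) for H2-DMb1 in embryonic cells, and −0.020 (SE 0.28) and 0.0011 (SE 0.53) in adult cells, all with an adjusted p of at least 0.999 (edgeR). With the block the standard errors fell to between 0.14 and 0.21 and the values stayed between −0.080 and 0.19.

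Between the stages, the levels of the subunits lay in opposite directions. H2-DMa had 236, 350 and 246 counts in embryonic PBS and 190, 334 and 157 in embryonic LPS libraries. In adult libraries it had 135, 92 and 100 counts with PBS and 131, 146 and 89 with LPS. Its level was 8.42 ± 1.95 CPM (SD, n = 3) in embryonic and 4.28 ± 0.774 CPM in adult PBS, 7.93 ± 2.68 CPM in embryonic and 4.20 ± 0.334 CPM in adult LPS, without overlap. H2-DMb1 had 84, 172 and 141 counts in embryonic PBS and 71, 258 and 89 in embryonic LPS libraries. In adult libraries it had 509, 176 and 470 counts with PBS and 639, 233 and 353 with LPS. Its level was 4.02 ± 1.37 CPM in embryonic and 14.47 ± 5.34 CPM in adult PBS, which did not overlap, and 4.82 ± 3.23 and 14.4 ± 6.83 CPM with LPS, where embryonic replicate 2 (8.50 CPM) exceeded adult replicate 2 (7.18 CPM).

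These stage differences did not pass edgeR's test over all genes. The share of all tested genes without overlap between stages was not counted, so the overlap is given as a description. With PBS, embryonic minus adult was 0.98 (log2, SE 0.28, adjusted p = 0.0825) for H2-DMa and −1.85 (SE 0.55, adjusted p = 0.0913) for H2-DMb1. With LPS it was 0.95 (SE 0.28, adjusted p = 0.0798) and −1.54 (SE 0.55, adjusted p = 0.135). None of the 4 tested members was called between stages, while 4.08% of all tested genes were called with PBS and 5.31% with LPS. At an unadjusted p under 0.05 there were 2 members with PBS, H2-DMa and H2-DMb1, and 3 with LPS, Cd74 in addition (1.67, SE 0.59, adjusted p = 0.130). The same was true of 19.8% and 22.0% of all tested genes. DESeq2 called H2-DMa and H2-DMb1 in both comparisons (adjusted p between 0.00943 and 0.0368), where it called 11.9% of genes with PBS and 13.1% with LPS. Without embryonic LPS replicate 2, edgeR called H2-DMa with PBS (0.97, adjusted p = 0.0421) and H2-DMb1 with LPS (−2.28, adjusted p = 0.0440).

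In terms of RPKM, the ratio of H2-DMb1 to H2-DMa within a library was 0.730 to 1.58 in the 6 embryonic and 3.27 to 10.0 in the 6 adult libraries, so the stages did not overlap. The lowest adult ratios, 3.27 and 3.92, belonged to replicate 2 with LPS and PBS. The same length is used for a gene in every library, so another choice of transcript length moves all ratios by 1 factor. This ratio was chosen after both genes' values had been seen and is given as a description.

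**Figure D4:**
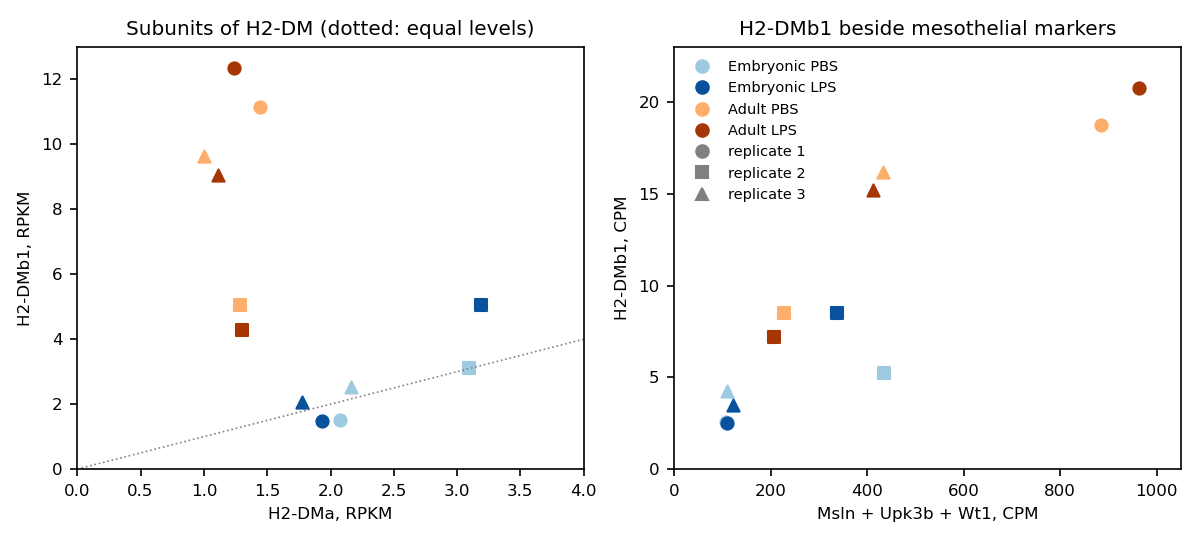
Left: RPKM of H2-DMb1 against H2-DMa, 1 point a library; embryonic libraries lie near the dotted line of equal levels (ratio 0.730 to 1.58) and adult libraries above it (3.27 to 10.0). Right: CPM of H2-DMb1 against the summed CPM of the mesothelial markers Msln, Upk3b and Wt1; adult replicate 1 is highest in both.

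Within each stage, the cultures with most H2-DMb1 were those with most of the mesothelial markers Msln, Upk3b and Wt1. Their sum was 884, 227 and 432 CPM in adult PBS and 964, 207 and 411 CPM in adult LPS libraries 1 to 3, and H2-DMb1 followed the same order, with 18.7, 8.49 and 16.2 CPM and with 20.8, 7.18 and 15.2 CPM. In embryonic libraries the sum was 108, 435 and 109 CPM with PBS and 110, 338 and 121 CPM with LPS, and replicate 2 was the highest in H2-DMb1 in both treatments. Across stages and treatments the order was not kept, since embryonic PBS replicate 2 had more of the markers than adult PBS replicate 2 but less H2-DMb1 (5.24 against 8.49 CPM), and its LPS library had fewer of the markers and more H2-DMb1 (8.50 CPM). All 3 markers were above the floor in every group. Adult replicate 2, lowest in H2-DMb1 among the adult cultures, was the highest in endothelial markers (1752 CPM with PBS and 1685 with LPS). Its summed fibroblast markers were lower too, 19380 and 18568 CPM, against at least 33013 CPM in the other adult libraries. The embryonic order was the reverse, since replicate 2, highest in H2-DMb1, had the lowest fibroblast sum in each treatment. This sum was 27549.5 CPM with PBS and 18515 CPM with LPS, against at least 30502.5 and 34604.5 CPM in the other embryonic libraries. The part of these cell types in the level of H2-DMb1 was not tested.

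Ciita (chromosome 16, 10480059-10528418) was at the limit of detection. It had 1, 0 and 0 counts in embryonic PBS, 0, 3 and 7 in embryonic LPS, 2, 0 and 0 in adult PBS and 1, 1 and 4 in adult LPS libraries. Thus 10 of 12 libraries were at or under the floor, and both libraries above it had received LPS. Over all libraries, 19 counts lay on the strand of the gene and 22 on the opposite strand, so these few reads were not enriched on the coding strand. No fold change is given for Ciita, since both PBS groups were at the floor. Expression below 0.0907 to 0.145 CPM was not detectable at this depth.

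**Figure D5:**
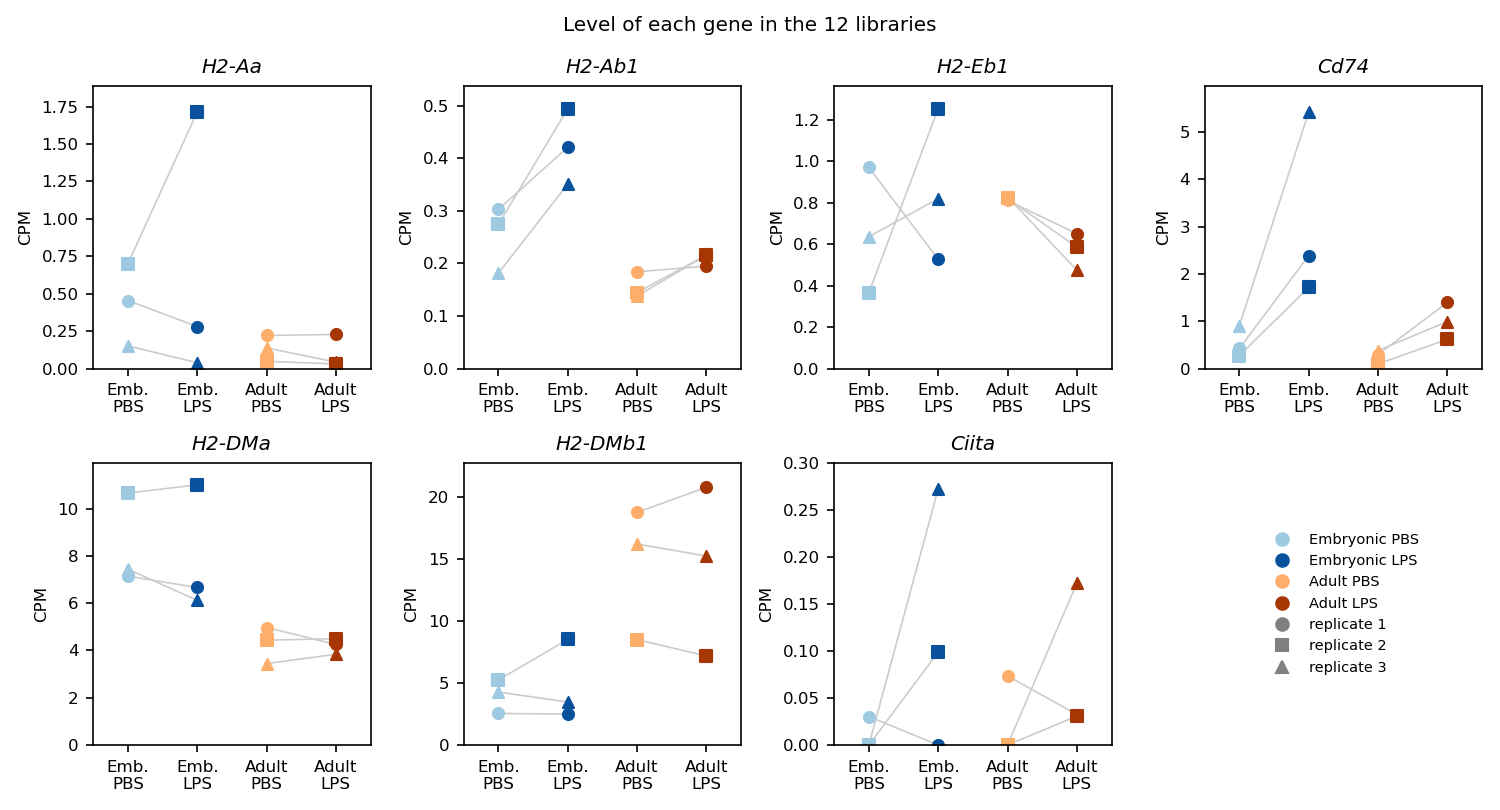
CPM of each of the 7 genes (y axes differ) in the 12 libraries, by group; symbols give the replicate number and grey lines join PBS and LPS libraries of the same number and stage. All 6 lines rise for Cd74, H2-DMa is higher and H2-DMb1 mostly lower in embryonic than in adult libraries, and Ciita reaches at most 0.273 CPM.

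Of the inducers of Ciita, Irf1 rose with LPS, while interferon gamma itself was nearly unread. Ifng had 1 count in 1 adult LPS library and 0 in the other 11. Irf1, an activator of Ciita, rose with LPS from 8.86 ± 5.8 to 159 ± 103 CPM (SD, n = 3) in embryonic cells (log2 fold change 4.19, SE 0.65, adjusted p = 0.00871, edgeR) and from 5.57 ± 1.7 to 63.8 ± 36 CPM in adult cells (3.53, SE 0.64, adjusted p = 0.0425). With the block and no fold threshold, the listed regulators Ifngr1, Ifngr2, Jak1, Jak2, Usf1, Irf8 and Prdm1 also rose in embryonic cells. Their log2 fold changes ran from 0.30 to 2.00 (adjusted p from 0.00048 to 0.0271, edgeR). Ifngr1, Ifngr2 and Jak2 rose in adult cells too, by 0.39 to 1.27. By this setting 12.5% of all tested genes were called in embryonic and 6.2% in adult cells.

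With LPS, 3 of the 9 tested regulators of Ciita, of 11 listed, were higher in embryonic than in adult cells, where 5.31% of all tested genes were called in either direction. Irf8, a factor of myeloid cells, exceeded the adult level by 5.34 (log2, SE 1.04, adjusted p = 0.0225, edgeR) and Prdm1, a repressor of Ciita, by 4.78 (SE 1.13, adjusted p = 0.0395). Ifngr2, a subunit of the interferon gamma receptor, did so by 0.44 (SE 0.10, adjusted p = 0.0312). Irf8 was at 53.2 ± 48 CPM in embryonic LPS and 1.33 ± 0.17 CPM in adult LPS libraries. In 2 of the 3 embryonic LPS libraries the summed macrophage markers, given above, exceeded those of every adult library, and their part in these differences was not tested.

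Factors that bind the promoters of class II genes were read at both stages. All 7 listed (Rfx5, Rfxank, Rfxap, Nfya, Nfyb, Nfyc and Creb1) were tested and none was called with LPS or between stages without the block. Rfx5, a subunit of RFX, went from 11.2 ± 3.4 CPM (SD, n = 3) under PBS to 25.0 ± 9.7 CPM under LPS in embryonic cells (1.18, SE 0.30, adjusted p = 0.0721, edgeR), and from 13.4 ± 2.3 to 23.3 ± 4.1 CPM in adult cells (0.81, SE 0.29, adjusted p = 0.562). With the block and no fold threshold, by which 12.5% of all tested genes were called in embryonic and 6.2% in adult cells, 3 of the 7 were called in embryonic and 1 in adult cells. Rfx5 rose in both stages (adjusted p = 0.00215 and 0.0205), Creb1 rose in embryonic cells (0.43, adjusted p = 0.0128) and Rfxap, another subunit of RFX, fell there (−0.63, SE 0.13, adjusted p = 0.0174). The median of the 7 was 0.13 in embryonic and 0.11 in adult cells.

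Of the 9 listed genes of antigen processing and turnover, none was called with LPS in either stage, with or without the block, and the median log2 fold change was −0.071 in embryonic and 0.017 in adult cells. Between the stages 1 of 9 was called, against 4.08% of all tested genes with PBS and 5.31% with LPS. This was Ifi30, which encodes the thiol reductase GILT of the antigen-loading compartment. Ifi30 had 120 ± 13 CPM (SD, n = 3) in embryonic and 41.9 ± 9.9 CPM in adult PBS (1.52, SE 0.22, adjusted p = 0.00611, edgeR), and 123 ± 15 against 41.0 ± 10 CPM with LPS (1.60, SE 0.22, adjusted p = 0.00598). Every embryonic library lay above every adult one, which was not counted over all genes. Embryonic PBS replicates 1 and 3 had 135 and 112 CPM of Ifi30, while their macrophage markers summed to 240 and 2914 CPM. Between stages these sums were mostly higher too, at 190 to 2914 CPM in embryonic and 53.6 to 210 CPM in adult libraries. The part of macrophage RNA in the level of Ifi30 was not tested.

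Ctss, the protease that cuts the invariant chain in professional antigen-presenting cells, was spread far more widely. It had 35.5, 36.7 and 356 CPM in embryonic PBS libraries 1 to 3 and 12.04, 0.723 and 2.65 CPM in adult ones. Embryonic minus adult was 4.78 (log2, SE 1.52, adjusted p = 0.107, edgeR) with PBS and 4.86 (SE 1.53, adjusted p = 0.0939) with LPS. Among embryonic libraries, Ctss was highest in PBS replicate 3 and lowest in LPS replicate 1. These libraries also held the highest and the lowest sum of macrophage markers. The part of macrophage RNA in the level of Ctss was not tested. March1, a ubiquitin ligase that removes class II molecules from the surface, had at most 0.773 CPM in adult and between 1.40 and 11.3 CPM in embryonic libraries (3.64 with PBS, SE 1.07, adjusted p = 0.0850).

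The other class II genes listed were at or near 0. None of the 5 passed the filter. H2-Eb2 and H2-Ea-ps had no count. H2-DMb2 had 1, 6 and 19 counts in embryonic PBS, 1 count in embryonic LPS and none in adult libraries. H2-Oa and H2-Ob, the subunits of the H2-DM inhibitor H2-O of B cells and some dendritic cells, reached 14 and 6 counts in embryonic PBS replicate 3, and in adult libraries H2-Oa had none and H2-Ob at most 2. The highest counts of these 3 genes thus came from the library with the largest sums of both macrophage and B cell markers (2914 and 0.454 CPM), in which Cd79b, a subunit of the B cell receptor, had 13 counts.

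The genes whose log2 CPM was most alike to that of a member were named by Pearson's r over the 12 libraries, as a description. The libraries share their stage, culture and treatment, so high values of r are common to many genes. For H2-DMb1 the nearest were Igfbp6, which encodes a protein that binds insulin-like growth factor (r = 0.983), and Pdlim2 (0.979). Igfbp6 was at 96.0 ± 47.7 CPM (SD, n = 3) in adult and 22.0 ± 6.5 CPM in embryonic PBS. For H2-DMa they were Galnt3 (0.969) and Atp6v1g1 (0.963). For Cd74 they were the cytokine gene Il1b (0.961), Pik3r5 (0.961) and the chemokine gene Ccl4 (0.955). Il1b was at 1184 ± 1423 CPM in embryonic and 14.2 ± 10.0 CPM in adult LPS, against 1.35 ± 1.4 and 0.0851 ± 0.12 CPM with PBS. For the summed chains they were Bsdc1 (0.929) and the endoplasmic reticulum chaperone genes Pdia4 (0.923) and Dnajb11 (0.918). Ciita had too few counts for its r to be read. The search for Cd74, H2-DMa and H2-DMb1 was added after their values had been seen.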

How the data were processed

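Strand-specific libraries (single-end reads, NextSeq 500) of 12 cultures were analysed. The authors trimmed the reads, mapped them to GRCm38.p6 with STAR, allowed 1 mismatch, retained reads with a unique place and deposited raw counts per gene, with the strands together and apart. The counter and its annotation are not given in the sources used here. Sense-strand counts were used; the opposite strand held 1.14% to 1.98% of gene counts. Rows that name no gene (17.4% to 19.9% of reads) were left out. Groups came from the labels. The 7 members, the gene lists and the tests were chosen with earlier results of these data known, and the lists come from general knowledge of these genes. The rule for named genes was all members, any listed gene called in a comparison or at the floor, and the 5 genes most alike to the summed chains and to Ciita, of which the nearest are given. Ctss, March1, Rfx5 and single cell type markers were named after their values were seen. The list genes Adgre1, H2-Ea, Spi1, Sppl2a and Trac were not analysed here, and 1 further listed gene is not reported here.

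Genes with a CPM above 0.5 in all 3 libraries of at least 1 group (13038 of 18810 with a count) were tested in edgeR 4.0.16 (R 4.3.3) with TMM factors and the quasi-likelihood test, with the 4 groups in 1 model. Adjusted p-values are Benjamini-Hochberg values over the tested genes. How many of all genes had libraries without overlap between groups was not counted, and statements of overlap describe the libraries only. The standard error is the log2 fold change over the square root of F. For LPS a call needs an adjusted p under 0.05 and a log2 fold change of 2 or more in size, and otherwise the adjusted p alone. Log2 CPM values use a prior count of 2. RPKM uses exon unions of GENCODE vM21 (GRCm38), in place of the RefSeq exons first planned. Promoters are from RefSeq. LPS and PBS libraries of the same stage and number were taken as pairs, because their deviations from the group means correlated in all 6 pairs (r = 0.610 to 0.849); the labels give only the number. The sources give 3 independent cultures a group. The scripts were tested on simulated counts. Alternatives were the block, DESeq2 1.42.0, other size factors, filters and thresholds, both strands together, the compared groups alone, the longest transcript and each library left out. The plots were made with matplotlib 3.10.9 (Python 3.11.15).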

Additional observations from a re-analysis of the deposited data

How the results depend on the processing

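Of 450 single-gene fold changes computed under other settings, 398 kept their direction and their side of the threshold, 18 newly passed it and 34 changed sign. The count of members called for LPS in embryonic cells went from 0 to 1 (Cd74) with the replicate block and with DESeq2. It was 1 as well with the block and no fold threshold and with the block without both libraries of any 1 number, which were chosen after seeing the data. Of the settings added in this way, the block with no fold threshold and the block without number 3 gave 1 call (Cd74) for LPS in adult cells, against 0. The block within stages changed no other call of a member. The count between stages went from 0 to 2 with PBS and to 2 with LPS under DESeq2. With a block on the number across stages it went to 1 with PBS (H2-DMa) and to 2 with LPS (H2-DMa and Cd74); these numbers do not pair the samples across stages (r = −0.306 to −0.0020), and Cd74 was then at 1.55 with LPS (adjusted p = 0.0375). Leaving out each library gave 0 to 1 calls for LPS in embryonic cells and between stages with PBS or LPS, and 0 for LPS in adult cells and the interaction. The causes were not tested.

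The sign changed only in values that passed no test, most of them near 0. H2-DMb1 with LPS in adult cells was −0.044 with the block, −0.011 with DESeq2 and with RLE size factors, −0.050 with library totals only, −0.0097 with no filter, −0.0062 with a filter at CPM 1 and −0.0058 with only the groups compared. With the block and without both libraries of 1 number, H2-Eb1 (−0.25) and H2-DMb1 (−0.16) changed sign in embryonic cells without number 2. In adult cells H2-DMa was 0.094 and H2-DMb1 −0.15 without number 1, and H2-DMb1 −0.046 without number 3. With single libraries left out, LPS values ran from −0.43 to 0.63 (H2-DMb1, embryonic), −0.36 to 0.32 (H2-DMb1, adult), −0.40 to 0.17 (H2-DMa, embryonic) and −0.16 to 0.10 (H2-DMa, adult). The interaction ran from −0.43 to 0.67 (H2-DMb1) and −0.38 to 0.19 (H2-DMa). Cd74 ran from 1.94 to 3.18 in embryonic and from 1.57 to 2.30 in adult cells. Counts of a few reads limit H2-Aa, H2-Ab1 and Ciita: with under 10 reads in most libraries, only large changes could pass.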
